A study of Sus scrofa with 15 samples.

Results

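The 14-3-3 proteins of the pig are encoded by 7 genes, *YWHAB* (beta), *YWHAE* (epsilon), *YWHAG* (gamma), *YWHAH* (eta), *YWHAQ* (theta), *YWHAZ* (zeta) and *SFN* (sigma). They were found by gene symbol in a table of 43294 features, with 28224 known genes and 15070 transcripts that the authors' assembly added without a gene name. The family was chosen by the measured values of *YWHAZ*, low in untreated 4-cell cloned embryos and far higher in both treated groups, so no p-value is given for any member between a treated group and the untreated 4-cell embryos, nor for *YWHAZ* in any comparison with a treated group, and calls there are counted only as a description. A mean value of at least 10 was needed for a test, which 5 of the 7 members reached; *YWHAG* and *SFN* were listed at 0 in all 15 libraries.

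The 14-3-3 proteins are small adaptors that work as dimers and dock onto phosphorylated serine or threonine motifs of other proteins. By holding such a client they can keep it in the cytoplasm, block its activity or shield it from phosphatases, and their clients include RAF kinases, CDC25 phosphatases, FOXO factors and YAP1. In oocytes they are known for keeping the meiotic trigger CDC25 phosphorylated and inactive. The isoforms share most of their client-binding groove, and *SFN* differs from the rest in being mainly epithelial.

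The samples were pig embryos made by somatic cell nuclear transfer (SCNT) and their donor cells, with RNA-seq of 3 libraries in each of 5 groups. PFF were cultured primary porcine fetal fibroblasts of early passage, and each embryo library came from a pool of 30 embryos. SCNT4c and SCNT8c were untreated embryos at the 4-cell and the 8-cell stage. SCNT4c-KG were 4-cell embryos injected with 1000 ng/µl mRNA of *KDM4A*, a histone H3K9 demethylase, at 5 h after activation and cultured for 48 h with 0.1 µM GSK126, which blocks EZH2, the enzyme that writes H3K27 methylation. SCNT4c-TDG were 4-cell embryos whose donor fibroblasts carried a doxycycline-inducible vector for *TDG*, an enzyme of DNA demethylation, and which received 500 ng/ml doxycycline from 40 to 72 h. The inducible donor cells had been selected with puromycin, whereas the untreated embryos came from plain PFF, so induction, vector and selection cannot be told apart here. No sequenced group received *KDM4A* mRNA alone, GSK126 alone or a mock injection, so these parts of SCNT4c-KG cannot be told apart either. The treated groups differ from each other in all of these at once. Whether replicate pools came from separate cloning sessions is not stated, and p-values measure only the spread between these libraries.

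All values below are counts divided by one factor for each library, called normalized values, and fold changes are on the log2(value + 1) scale with the standard error (SE) from limma. A member was called different when limma gave a Benjamini-Hochberg adjusted p under 0.05 over all features, with more than a 2-fold change. Recovered reads ranged from 12354649 in SCNT4c-KG to 22868038 in PFF. *KDM4A* was at 1429 to 1476 in SCNT4c-KG against 134 to 313 in SCNT4c, 555 to 918 in SCNT4c-TDG and 4932 to 5150 in PFF, and *TDG* was at 49857 to 59944 in SCNT4c-TDG against 939 to 2541 in SCNT4c and 3886 to 4738 in SCNT4c-KG. The summed value of 8 fibroblast markers was at least 3835976 in PFF and at most 5448 in any embryo library, with 4236 to 5448 in SCNT4c, 2155 to 2435 in SCNT8c, 2476 to 3592 in SCNT4c-KG and 1612 to 2143 in SCNT4c-TDG. Its genes did not move together in SCNT4c-KG against SCNT4c, where *VIM* (482 to 1379.7) and *THY1* (106 to 700.0) were called higher and 4 of the 7 tested were called lower. The summed value of 8 oocyte and maternal markers, mainly *ZP4*, was at most 20.3 in PFF, 67604 to 89041 in SCNT4c, 36534 to 45840 in SCNT8c, 25004 to 48628 in SCNT4c-KG and 9405 to 16201 in SCNT4c-TDG, although *GDF9*, *BMP15* and *MOS* were listed at 0 in all 15 libraries. *ZP3* of this list went the other way in SCNT4c-KG, from 28.1 to 667, and was called higher. Cumulus markers, mainly *INHBA*, summed to 1372 to 1775 in SCNT4c, 1328 to 1898 in SCNT8c, 766 to 861 in SCNT4c-KG and 457 to 575 in SCNT4c-TDG, and epithelial markers to 2723 to 3041, 1772 to 2360.0, 1571 to 2103 and 3859 to 4124 in the same order. Of these, *EPCAM* had means of 2862, 2124, 967 and 3025 and *CDH1* of 21.5, 9.60, 767 and 981. These markers therefore differed between the embryo groups along with the members below, and their part in the results was not tested. In bulk libraries, fewer cells with a transcript and less of it per cell cannot be told apart.

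The members lie on 6 chromosomes of the Sscrofa11.1 assembly. *YWHAZ* is at chr4:35975513-36009909 on the plus strand and has 5 annotated transcripts, each with its own start. *YWHAQ* at chr3:126738795-126772784 and *YWHAG* at chr3:9994802-10023296 share a chromosome. *YWHAB* is at chr17:47298020-47317826, *YWHAH* at chr14:48544031-48556496 and *SFN* at chr6:84188521-84189824, and *YWHAE* at chr12:47601133-47645327 is the only member on the minus strand. Their coding sequences run from 738 to 768 bases, for proteins of 245 to 255 residues, while the merged exons run from 1047 bases in *YWHAB* to 3895 bases in *YWHAZ*.

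The 250 bases before the annotated starts are shown for *YWHAZ* and *YWHAQ*, the members that were highest in the same groups, since CG dinucleotides are the substrate of the methylation that TDG acts on; methylation itself was not analysed here. Capitals mark each CG, and each window is read 5′ to 3′ on the plus strand from the RefSeq assembly. The windows are chr4:35975263-35975512, before the first *YWHAZ* start, chr4:35977016-35977265, before the *YWHAZ* start 1753 bases further on, and chr3:126738545-126738794, before *YWHAQ*.
YWHAZ first start: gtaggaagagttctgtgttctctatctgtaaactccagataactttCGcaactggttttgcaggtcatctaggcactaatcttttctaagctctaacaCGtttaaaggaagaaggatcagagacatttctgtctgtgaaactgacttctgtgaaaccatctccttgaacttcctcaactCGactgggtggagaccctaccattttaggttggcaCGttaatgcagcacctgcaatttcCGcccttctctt
YWHAZ start 1753 bases on: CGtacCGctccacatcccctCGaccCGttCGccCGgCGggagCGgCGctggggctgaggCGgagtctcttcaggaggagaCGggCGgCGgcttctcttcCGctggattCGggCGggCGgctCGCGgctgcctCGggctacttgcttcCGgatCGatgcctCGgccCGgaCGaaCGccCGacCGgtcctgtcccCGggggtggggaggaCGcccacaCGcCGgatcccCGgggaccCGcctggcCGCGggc
YWHAQ start: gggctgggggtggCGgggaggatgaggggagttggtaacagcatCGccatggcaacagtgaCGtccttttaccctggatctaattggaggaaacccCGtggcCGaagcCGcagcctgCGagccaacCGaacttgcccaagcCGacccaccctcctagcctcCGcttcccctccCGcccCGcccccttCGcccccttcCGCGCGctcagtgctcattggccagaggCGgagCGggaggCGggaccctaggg
The window before the first *YWHAZ* start held 5 CG and was 43.6% G or C, and 72.1% of the 20664 promoters of protein-coding genes read in this way held at least as many CG. The window before the start 1753 bases on held 36 CG, a number that 6.05% of promoters reached. The promoters compared were those before the outermost start of each gene, whereas this was the *YWHAZ* start with the most CG. The share is therefore not a rank among all annotated starts. The *YWHAQ* window held 19 CG, which 31.5% of promoters reached, and the windows of *YWHAB*, *YWHAE* and *YWHAH* held 18, 16 and 18. The letters CCAAT, searched on both strands, were found at 2 places in the *YWHAQ* window and at none in either *YWHAZ* window shown, while the window before a start 485 bases on, which overlaps an exon, held 1, and 32.0% of all promoters held them. The windows of the *YWHAZ* starts 485, 837 and 4314 bases on held 15, 21 and 0 CG. The counting by gene does not say which *YWHAZ* start was used.

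*YWHAZ* had the widest fold range of the tested members. Its normalized values were 5152, 4948 and 5409 in PFF. They were 33.1, 37.6 and 28.2 in SCNT4c libraries a, b and c, which rest on 34 to 43 reads each, and 62.5, 54.0 and 57.1 in SCNT8c. The donor fibroblasts thus stood far above both untreated stages, and no library of one group reached another.

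In the treated 4-cell embryos, *YWHAZ* was at 1455, 1775 and 2606 in SCNT4c-KG and at 3024, 2844 and 1495 in SCNT4c-TDG. The 2 treated groups overlapped with each other and lay wholly between the untreated embryos and PFF. The group means were 59.0 times that of SCNT4c in SCNT4c-KG and 74.4 times in SCNT4c-TDG, with log2 fold changes of 5.81 (SE 0.39) and 6.12 (SE 0.39). These are the values by which the family was chosen, so no test is given.

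Relative to the donor cells, *YWHAZ* stood at 0.638% of the PFF mean in SCNT4c and 1.12% in SCNT8c, but at 37.6% in SCNT4c-KG and 47.5% in SCNT4c-TDG. With the assembled transcript of the same locus added, described below, these shares were 4.12%, 5.30%, 38.2% and 48.5%. Between SCNT4c-TDG and SCNT4c-KG its log2 fold change was 0.31 (SE 0.39), and the libraries of the treated groups overlapped. Against PFF, *YWHAZ* in SCNT8c was lower by a log2 fold change of -6.46 (SE 0.23, limma adjusted p = 1.06e-05), or -4.27 (SE 0.28, limma adjusted p = 4.85e-05) with that transcript added. The plot of values by library shows *YWHAZ* spanning 28.2 to 5409, the widest fold range of the tested members.

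**Figure D1:**
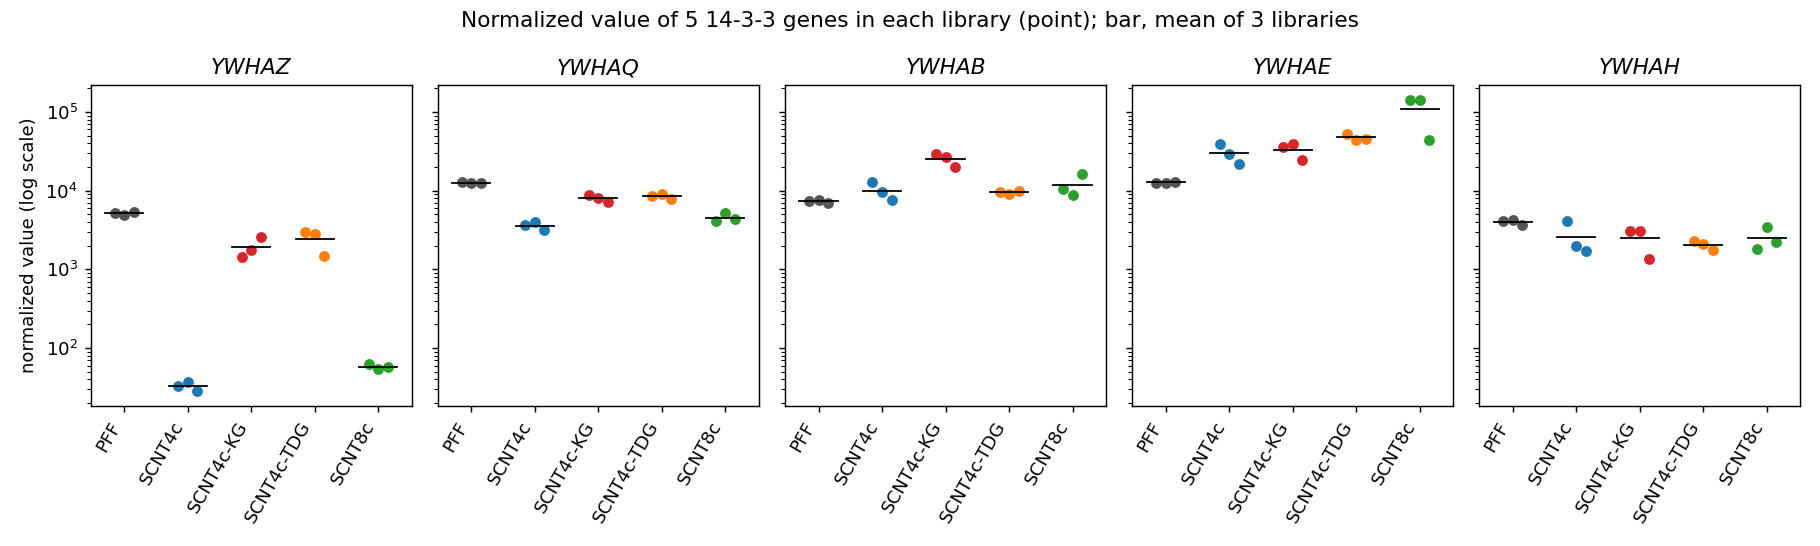
Normalized value (log axis) of the 5 detected 14-3-3 genes in each of the 15 libraries, by group; points are libraries and bars are means of 3. *YWHAZ* lies between 28.2 and 62.5 in untreated embryos and at 1455 or more in both treated groups, *YWHAB* is highest in SCNT4c-KG, and 1 SCNT8c library is far below the others for *YWHAE*.

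The *YWHAZ* locus held a second entry of the table, an assembled transcript without a gene name that moved the opposite way. It was at 181, 224 and 139 in SCNT4c and at 131, 249 and 276 in SCNT8c. It was at 32.7, 44.4 and 58.4 in SCNT4c-KG, at 73.6, 114 and 34.4 in SCNT4c-TDG and at 26.9, 40.8 and 56.0 in PFF. The entry was thus high where the gene entry was low, and every SCNT4c library was above every treated library. How reads that fall on both entries were shared out, and whether strand was used, is not stated in the sources used here.

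Of the reads counted at this locus, the assembled transcript held 83.2% to 85.6% in SCNT4c and 67.6% to 82.9% in SCNT8c. It held 2.19% to 2.44% in SCNT4c-KG, 2.25% to 3.84% in SCNT4c-TDG and 0.519% to 1.03% in PFF. With both entries added, *YWHAZ* was at 215 ± 46.8 (SD, n = 3) in SCNT4c, 1991 ± 607 in SCNT4c-KG and 2528 ± 868 in SCNT4c-TDG. The fold over SCNT4c was then 9.28 in SCNT4c-KG and 11.8 in SCNT4c-TDG, well under the 59.0 and 74.4 of the gene entry alone, and the libraries of SCNT4c and SCNT8c overlapped. The size of the *YWHAZ* difference therefore depends on how the locus is counted, while the order of the treated and untreated groups did not change.

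**Figure D2:**
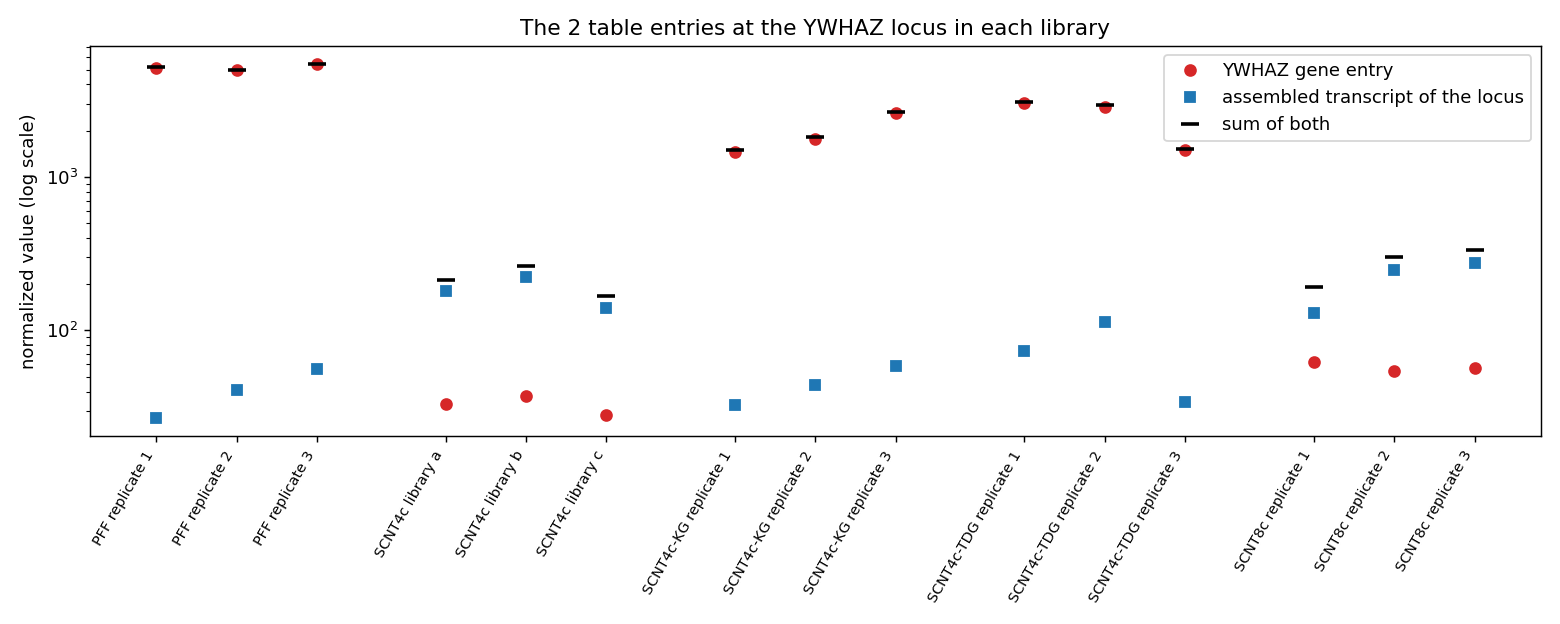
Normalized value (log axis) of the *YWHAZ* gene entry (circles), of the assembled transcript of the same locus (squares) and of their sum (dashes) in each library. The squares lie above the circles in all 6 untreated embryo libraries and below them in all 9 others.

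*YWHAQ*, the theta isoform, was the other member that was higher in both treated groups. It was at 3631, 3982 and 3164 in SCNT4c. It was at 8893, 8178 and 7130 in SCNT4c-KG and at 8633, 8987 and 7812 in SCNT4c-TDG. Neither treated group overlapped with SCNT4c, and the log2 fold changes were 1.17 (SE 0.23) and 1.24 (SE 0.23), so the *YWHAQ* difference was 2.25-fold and 2.36-fold between group means where that of *YWHAZ* was far larger.

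In SCNT8c *YWHAQ* was at 4076, 5138 and 4396, above every SCNT4c library but without passing the test (log2 fold change 0.34, SE 0.23, limma adjusted p = 0.336). In PFF it was at 13006, 12606 and 12457, above every embryo library. Against PFF its log2 fold change was -1.83 in SCNT4c (SE 0.10, limma adjusted p = 1.18e-05) and -1.49 in SCNT8c (SE 0.15, limma adjusted p = 0.000252). The SCNT8c difference came under 2-fold when edgeR, DESeq2 or a common library total set the scale (-0.90, -0.86 and -0.81). The order of *YWHAQ* by group mean, PFF, SCNT4c-TDG, SCNT4c-KG, SCNT8c and SCNT4c, was that of *YWHAZ*, and in both genes only the 2 treated groups overlapped with their neighbour in this order.

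Against SCNT8c, *YWHAQ* was higher by a log2 fold change of 0.83 in SCNT4c-KG (SE 0.23, limma adjusted p = 0.0127) and 0.91 in SCNT4c-TDG (SE 0.23, limma adjusted p = 0.00855). Both stayed under the 2-fold limit, and the SCNT4c-TDG value exceeded it under quantile normalization (1.21), a common total (1.12) and edgeR (1.01). *YWHAQ* was not called between SCNT4c-TDG and SCNT4c-KG (log2 fold change 0.08, SE 0.23, limma adjusted p = 0.862).

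*YWHAB*, the beta isoform, separated the treatments. It was at 29326, 26478 and 19792 in SCNT4c-KG. It was at 9632, 9047 and 9913 in SCNT4c-TDG and at 13031, 9499 and 7542 in SCNT4c. Every SCNT4c-KG library was above every other library of the study, while SCNT4c-TDG lay inside the range of SCNT4c.

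The direct comparison gave a *YWHAB* log2 fold change of -1.38 for SCNT4c-TDG against SCNT4c-KG (SE 0.28, limma adjusted p = 0.00391), which was -0.71 with an adjusted p of 0.0749 under quantile normalization. Against SCNT4c the log2 fold changes were 1.35 (SE 0.28) in SCNT4c-KG and -0.04 (SE 0.28) in SCNT4c-TDG. In SCNT8c *YWHAB* was at 10524, 8760 and 16334, which overlapped with SCNT4c, and SCNT4c-KG was higher than SCNT8c by 1.12 (SE 0.28, limma adjusted p = 0.00804). That call was lost without SCNT4c-KG replicate 1 (0.998) or SCNT8c replicate 2 (0.92), under quantile normalization (0.74) and under a common total (0.97), each time because the fold came under 2.

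PFF had the lowest *YWHAB* mean, with 7487, 7605 and 7053. SCNT4c overlapped with PFF and SCNT8c did not, and neither was called (the lower limma adjusted p, that of SCNT8c, was 0.0556). Under edgeR, DESeq2 and a common total both embryo groups were called higher than PFF, with log2 fold changes of 1.03 to 1.37. These scalings moved the median of all features in the PFF comparisons by 0.60 to 0.94, so the position of *YWHAB* relative to the other features changed less than its fold.

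*YWHAE*, the epsilon isoform, was the most abundant member per kb of exon in every embryo library outside SCNT4c-KG. It was at 39639, 28857 and 21800 in SCNT4c, at 35589, 38960 and 24707 in SCNT4c-KG and at 53270, 44552 and 45523 in SCNT4c-TDG. In SCNT8c replicates 1 and 2 it reached 144015 and 141537, but replicate 3 was at 43873. The third SCNT8c library thus stood with SCNT4c-TDG and not with its own group, though still above every SCNT4c library.

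*YWHAE* was higher in SCNT8c than in SCNT4c by a log2 fold change of 1.72 (SE 0.39, limma adjusted p = 0.0267). It was 2.29 with an adjusted p of 4.78e-05 without SCNT8c replicate 3, and it was lost in a fit of the 2 groups alone (adjusted p = 0.198) and without any other single library of these groups (1.43 to 1.94, adjusted p up to 0.111). SCNT4c-KG was lower than SCNT8c by -1.57 (SE 0.39, limma adjusted p = 0.00688). SCNT4c-TDG was lower by -1.02 (SE 0.39, limma adjusted p = 0.0673), which became -1.58 with an adjusted p of 0.000232 without SCNT8c replicate 3 and passed under edgeR (-1.10) and DESeq2 (-1.19).

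Against SCNT4c, *YWHAE* differed by 0.15 (SE 0.39) in SCNT4c-KG, where the libraries overlapped, and by 0.71 (SE 0.39) in SCNT4c-TDG, where they did not. The latter was 1.28 under quantile normalization and was then called. SCNT4c-TDG was also above every SCNT4c-KG library, without passing the test (0.55, SE 0.39, limma adjusted p = 0.366). In PFF *YWHAE* was at 12704, 12705 and 12954, below every embryo library, and it was higher in SCNT4c by 1.19 (SE 0.21, limma adjusted p = 0.00203) and in SCNT8c by 2.91 (SE 0.46, limma adjusted p = 0.00155). Without SCNT4c library a, the former came just under 2-fold (0.97, adjusted p = 0.00158).

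*YWHAH*, the eta isoform, was called in none of the 8 comparisons. Its values were 4125, 4225 and 3713 in PFF and 4071, 1999 and 1696 in SCNT4c. They were 3122, 3108 and 1345 in SCNT4c-KG, 2287, 2105 and 1761 in SCNT4c-TDG and 1795, 3425 and 2254 in SCNT8c. All 4 embryo groups overlapped, and their log2 fold changes lay between -0.24 and 0.00 with an SE of 0.40. SCNT8c was lower than PFF by -0.74 (SE 0.27, limma adjusted p = 0.0467), under the 2-fold limit, and SCNT4c by -0.74 (SE 0.33, limma adjusted p = 0.0767). Without SCNT4c library a, the latter became -1.12 with an adjusted p of 0.000476.

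*YWHAG* and *SFN* were listed at 0 in every library. Of all known genes, 4062 (14.4%) were at 0 in all 15 libraries, and *EEF1A1*, a translation elongation factor that every cell uses, reached at most 37.6, so a listed 0 is not taken here as a lack of transcript. An assembled transcript of the *YWHAG* locus was present at 19.2 to 177, with means of 51.1 in PFF, 83.2 in SCNT4c (36.1 without library a, which was at 177), 59.6 in SCNT4c-KG, 31.7 in SCNT4c-TDG and 68.5 in SCNT8c. It was called in none of the 8 comparisons by limma (adjusted p = 0.267 to 0.975). The assembled transcript near *SFN* shares its locus with *GPN2* and *GPATCH3* and cannot be assigned to *SFN*. Of all known genes, 56.9% share their locus with such a transcript.

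Counted over the family, 3 of the 5 tested members were called higher in SCNT4c-KG than in SCNT4c (*YWHAZ*, *YWHAB*, *YWHAQ*) and 0 lower, where 37.2% of all 18942 tested features were called and 17.6% were called higher. Under quantile normalization the log2 fold changes of *YWHAB* (0.98) and *YWHAQ* (0.87) came under the 2-fold limit. In SCNT4c-TDG 2 of 5 were called higher than in SCNT4c (*YWHAZ*, *YWHAQ*) and 0 lower, where 33.3% of all features were called and 15.7% were called higher. Under quantile normalization *YWHAE* was called too, which made 3 of 5. *YWHAZ* chose both contrasts, and nothing is read from these counts. In SCNT8c against SCNT4c 1 of 5 was called (*YWHAE*), where 5.79% of features were, and in SCNT4c-TDG against SCNT4c-KG 1 of 5 (*YWHAB*), where 16.2% were.

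In SCNT4c-KG against SCNT8c 3 of 5 were called (*YWHAZ* and *YWHAB* higher, *YWHAE* lower), where 28.2% of features were. In SCNT4c-TDG against SCNT8c 1 of 5 was called (*YWHAZ*), where 24.7% were. The high values of *YWHAZ* in the treated groups chose the family, so nothing is read from its calls here, and without it 2 of 4 were called in SCNT4c-KG and 0 of 4 in SCNT4c-TDG. In both PFF comparisons *YWHAE* was called higher and *YWHAQ* and *YWHAZ* lower, which is 3 of 5, where 78.2% of features were called in SCNT4c and 70.5% in SCNT8c. Without *YWHAZ*, whose low SCNT4c values chose the family, 2 of 4 were called in each.

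The libraries of the groups compared did not overlap for 3 of the 5 members in SCNT4c-KG against SCNT4c (53.9% of all tested features), for 3 in SCNT4c-TDG against SCNT4c (58.4%) and for 3 in SCNT8c against SCNT4c (23.5%). They did not overlap for 2 in SCNT4c-TDG against SCNT4c-KG (44.4%), for 4 in SCNT4c-KG against SCNT8c (36.7%) and for 2 in SCNT4c-TDG against SCNT8c (40.6%). Against PFF they did not overlap for 3 in SCNT4c (84.5%) and for 5 in SCNT8c (77.3%), where *YWHAB*, *YWHAE* and the lower *YWHAQ*, *YWHAZ* and *YWHAH* all stood clear of the donor cells. *YWHAZ* is among these members in every comparison but SCNT4c-TDG against SCNT4c-KG, and nothing is read from its separation. Without it the counts were 2 of 4 in SCNT4c-KG, SCNT4c-TDG and SCNT8c against SCNT4c, 2 of 4 between the treated groups, 3 and 1 of 4 in SCNT4c-KG and SCNT4c-TDG against SCNT8c, and 2 and 4 of 4 in SCNT4c and SCNT8c against PFF.

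**Figure D3:**
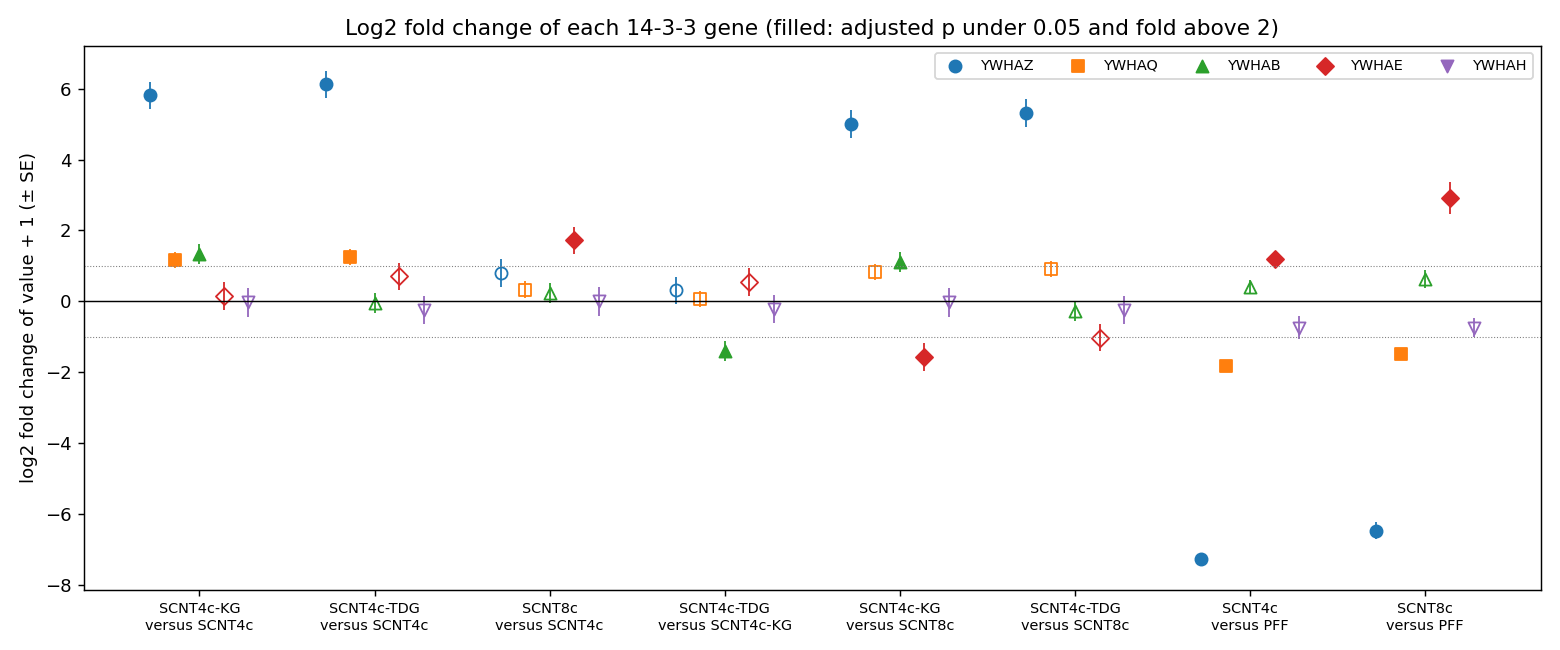
Log2 fold change of value + 1 (± SE, limma) of the 5 tested members in the 8 comparisons; filled symbols are called, open symbols are not, and dotted lines mark a 2-fold difference. *YWHAZ* and *YWHAQ* lie on the same side of 0 in all 8, *YWHAB* is the only member called between the treated groups, and *YWHAE* is highest in SCNT8c.

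The make-up of the family was compared per kb of merged exon, as the members differ in length. *YWHAE* gave 55.0% ± 0.926 (SD, n = 3) and *YWHAB* 33.5% ± 0.432 of the summed reads per kb in SCNT4c. In SCNT4c-KG the order per kb was turned, with 50.8% ± 2.02 from *YWHAB* and 36.5% ± 2.42 from *YWHAE*. By reads not divided by length it was not, with 46.5% ± 2.76 from *YWHAE* and 35.6% ± 1.84 from *YWHAB* in SCNT4c-KG. In SCNT4c-TDG *YWHAE* gave 62.2% ± 1.74 and *YWHAB* 22.7% ± 1.69. The shares of these 2 isoforms in the 3 groups of 4-cell embryos did not overlap between groups.

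PFF had a more even family, with 29.7% ± 0.725 from *YWHAB*, 28.3% ± 0.791 from *YWHAE*, 27.3% ± 0.376 from *YWHAQ*, 9.09% ± 0.477 from *YWHAH* and 5.60% ± 0.334 from *YWHAZ*. In SCNT8c *YWHAE* gave 85.2% in both replicates 1 and 2 but 54.7% in replicate 3, whose make-up was close to that of SCNT4c. *YWHAZ* per kb gave 0.0308% of the family in SCNT4c, 0.0230% in SCNT8c, 1.13% in SCNT4c-KG and 1.56% in SCNT4c-TDG, the lowest share of the 5 detected members in each of these groups. By normalized value, not divided by length, the order of *YWHAZ* and *YWHAH* was not the same, with means of 2454 and 2051 in SCNT4c-TDG and of 1946 and 2525 in SCNT4c-KG. The summed value per kb of the whole family was 21172 to 37284 in SCNT4c, 36899 to 53271 in SCNT4c-KG and 38461 to 43554 in SCNT4c-TDG.

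**Figure D4:**
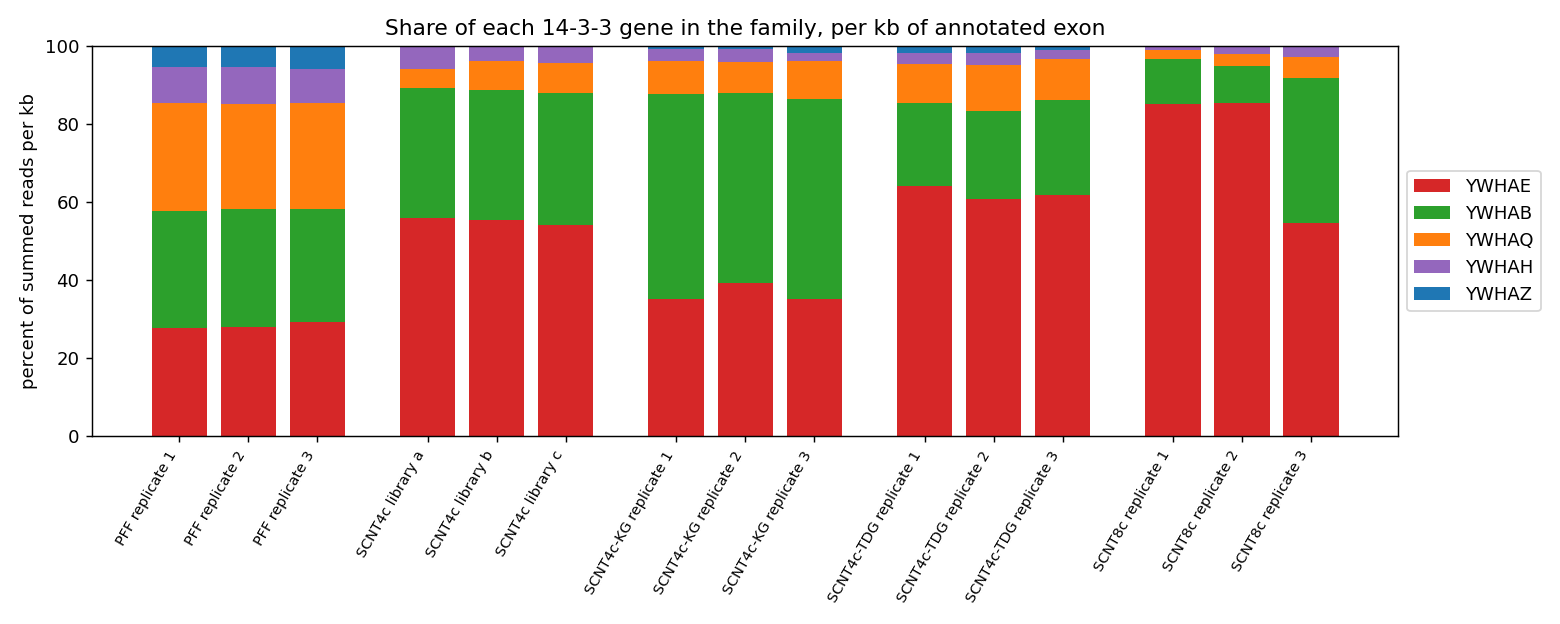
Percent of the summed 14-3-3 reads per kb of merged exon that each gene gives in each library; *YWHAG* and *SFN* are at 0. *YWHAB* gives 48.6% to 52.6% in SCNT4c-KG and 21.1% to 24.5% in SCNT4c-TDG, and SCNT8c replicate 3 differs from replicates 1 and 2.

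The genes most like *YWHAZ* across all 15 libraries, by Pearson r of log2(value + 1) among 10852 known named genes, were *UFC1* (0.992), *GABARAP* (0.988), *SLC39A9* (0.986), *LSM14A* (0.986) and *TRPM7* (0.983). *UFC1*, a conjugating enzyme of the ubiquitin-like modifier UFM1, was at means of 193 in PFF, 0 in SCNT4c, 112 in both treated groups and 1.29 in SCNT8c. *GABARAP*, an autophagy protein, was at 2352 in PFF, 13.5 in SCNT4c, 1074 in SCNT4c-KG, 1392 in SCNT4c-TDG and 22.4 in SCNT8c. Over the 12 embryo libraries the highest r were those of *DDX18*, *UFC1*, *RARS*, *GATA6* and *DHX37* (0.991 to 0.992). These are descriptions over libraries that fall into groups and share them.

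Among the members, *YWHAQ* had an r of 0.960 with *YWHAZ* over the 15 libraries and 0.961 over the 12 embryo libraries. For *YWHAB*, *YWHAH* and *YWHAE* r was 0.02, 0.22 and -0.49 over the 15 libraries and 0.40, -0.17 and -0.18 over the embryos. By r, *YWHAQ* stood at rank 52 of the 10852 genes compared over 15 libraries and at rank 145 of 9814 over the embryos. These r rest on the *YWHAZ* values by which the family was chosen.

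Genes that act with the family were taken from a list of 61 clients, kinases that write the docking sites and phosphatases that remove them. Of these, 33 were tested in the embryo fits. In SCNT4c-KG against SCNT4c 1 was called higher and 8 lower, where 37.2% of all 18942 features were called, 3335 higher and 3719 lower. The median log2 fold change of the list was -0.42 where that of all features was -0.30 and that of the known genes alone was -0.21. *AKT2*, a survival kinase, went from 29.1 ± 6.22 to 121 ± 4.54 (log2 fold change 2.03, SE 0.73). *SSH1*, a cofilin phosphatase that 14-3-3 holds, went from 2922 ± 824 to 261 ± 80.8 (-3.49, SE 0.36), and *WEE2*, the oocyte kinase that keeps CDK1 inactive, from 83899 ± 21862 to 18561 ± 3618 (-2.16, SE 0.46). The class II histone deacetylase *HDAC9*, another client, had a log2 fold change of -2.03 (SE 0.71). With each library of these groups left out in turn, 5 to 9 were called lower, the call of *AKT2* was lost each time and that of *HDAC9* in 4 of the 6 fits.

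In SCNT4c-TDG against SCNT4c 7 were called higher and 8 lower, where 33.3% of all features were called, 2969 higher and 3331 lower. The median of the list was 0.07 where that of all features was -0.26 and that of the known genes alone was -0.13. *SSH1* and *WEE2* were again lower (-2.85 and -2.79), and so was *PPP1CA*, a catalytic subunit of protein phosphatase 1 (-3.14, SE 0.38). The Hippo kinase *LATS1* (2.58, SE 0.69), the AMPK subunit *PRKAA1* (2.23, SE 0.54) and the cell cycle kinase *WEE1* (1.95, SE 0.49) were higher. With each library left out, 5 to 6 were called higher and 5 to 7 lower, and *LATS1* was at 1.85 without SCNT4c library a. *WEE1* and *WEE2*, which act on the same target, thus stood in opposite directions in this group.

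The treated groups differed from each other in 11 of the 33, with 10 higher and 1 lower in SCNT4c-TDG, where 16.2% of all 18942 features were called, 1340 higher and 1730 lower. The median log2 fold change of the list was 0.82 where that of all features was -0.02. Of 14 kinases that write docking sites, 7 were higher in SCNT4c-TDG and 0 lower. With each library of these groups left out, 4 to 8 of the whole list were higher and 1 to 2 lower. *LATS1* was at 278 ± 16.4 against 52.4 ± 28.5 in SCNT4c-KG (2.55, SE 0.69, limma adjusted p = 0.0196), a call that was lost without SCNT4c-KG replicate 1 or any one SCNT4c-TDG library (limma adjusted p = 0.0616 to 0.0875). *WEE1* was at 634 ± 158 against 134 ± 50.2 (2.27, SE 0.49, limma adjusted p = 0.00556). *PPP1CA* fell by 3.52 on the log2 scale (SE 0.38, limma adjusted p = 4.34e-05), whereas its relative *PPP1CB* was higher by 1.56 (SE 0.26, limma adjusted p = 0.00117).

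**Figure D5:**
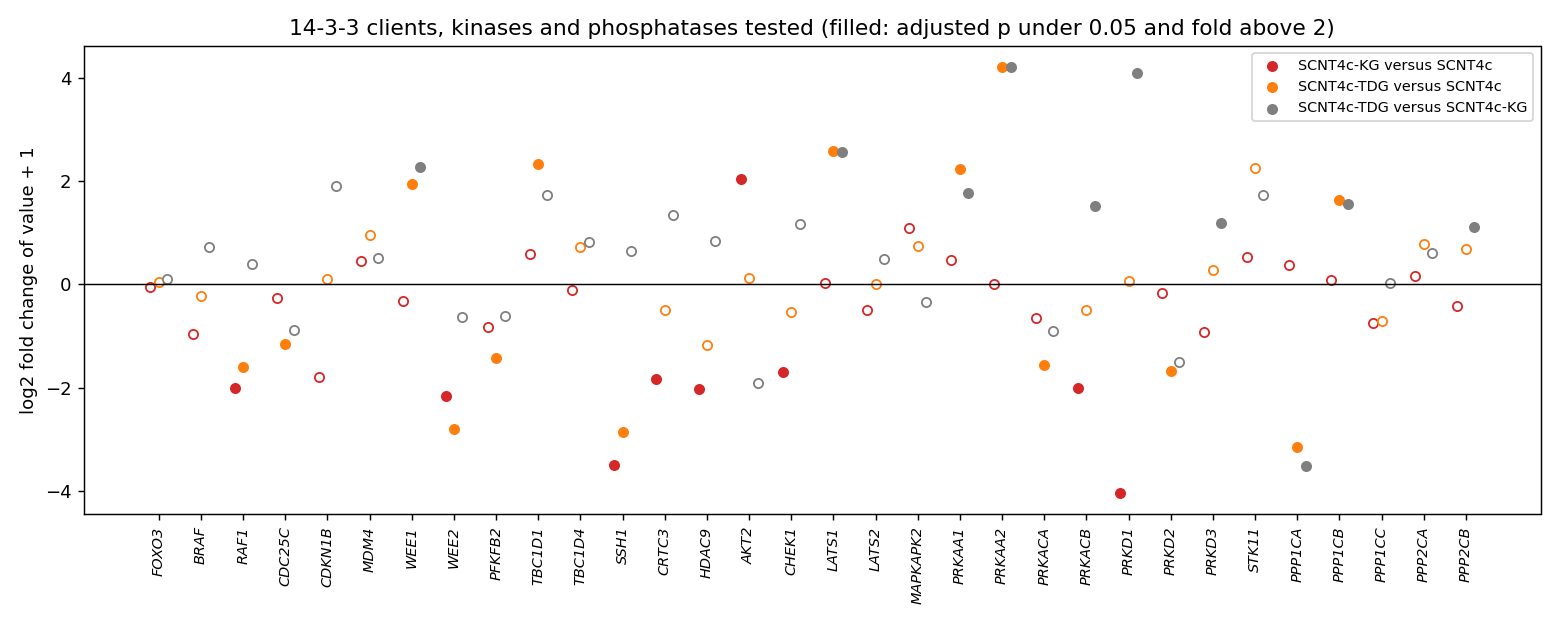
Log2 fold change of value + 1 of tested clients, kinases and phosphatases in SCNT4c-KG against SCNT4c (red), SCNT4c-TDG against SCNT4c (orange) and SCNT4c-TDG against SCNT4c-KG (grey); filled points are called. *SSH1* and *WEE2* are low in both treated groups, and most filled grey points lie above 0.

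Between the untreated stages 1 of 33 was higher and 2 were lower in SCNT8c, where 5.79% of all features were called. *PRKAA1* was higher (2.11, SE 0.54, limma adjusted p = 0.0384), and *WEE2* was lower (-2.13, SE 0.46, limma adjusted p = 0.0245). In SCNT8c *WEE2* was at 14025, 9102 and 51665, so replicate 3 stood far above the others, and without it the difference was -2.86 (limma adjusted p = 2.38e-05). Without that replicate 3 genes of the list were higher and 4 lower, and without any other single library of these groups the calls of *PRKAA1* and *WEE2* were lost. Against SCNT8c, 1 of 33 was higher and 5 were lower in SCNT4c-KG, and 5 were higher and 3 lower in SCNT4c-TDG, where 28.2% and 24.7% of all features were called. With each library left out, 0 to 3 were higher and 4 to 8 lower in SCNT4c-KG. In SCNT4c-TDG 3 to 7 were higher and 3 to 5 lower. In SCNT4c-KG *MAPKAPK2*, a kinase downstream of p38, was higher (2.52), while *SSH1* (-3.12), *PRKACB* (-1.94) and *PRKAA1* (-1.64) were lower. The calls of *MAPKAPK2* and *PRKAA1* were both lost without SCNT4c-KG replicate 1 (2.37 and -1.24), SCNT4c-KG replicate 3 (2.38 and -1.66) or SCNT8c replicate 1 (1.64 and -1.37), and that of *PRKAA1* also without SCNT8c replicate 2 (-1.33). In SCNT4c-TDG *WEE1* (2.19) and *PPP2CB* (1.25) were higher, and *PPP1CA* (-3.29), *SSH1* (-2.48) and *PFKFB2* (-1.78) were lower. The call of *PPP2CB* was lost without SCNT4c-TDG replicate 3 (1.20) or SCNT8c replicate 2 (0.81).

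In the comparisons with the donor cells 43 of the 61 were tested. In SCNT4c 4 were higher and 33 lower than in PFF, where 7662 of all 19287 tested features were higher and 7421 lower (78.2% called). In SCNT8c 4 were higher and 33 lower, where 6220 of 18448 features were higher and 6793 lower (70.5% called). The median log2 fold changes were -2.90 and -3.20, where those of all features were 0.07 and -0.15 and those of the known genes alone were -1.12 and -1.20. With each library left out, 3 to 4 were higher and 31 to 32 lower in SCNT4c, and 4 to 5 higher and 29 to 34 lower in SCNT8c. *WEE2*, *CDC25C* and *CHEK1*, which act on entry into division, were higher in both stages, with *CDC25C* at 5266 in SCNT4c, 3103 in SCNT8c and 185 in PFF. The mTOR regulator *TSC2* was lower in both (920 in PFF, 2.37 in SCNT4c and 8.38 in SCNT8c). The AMPK subunit *PRKAA2*, listed at 0 in every SCNT4c library, was at 211 in PFF. *LATS2* went from 3160 in PFF to a mean of 36.6 in SCNT8c, where the libraries were at 0, 4.16 and 106. Assembled transcripts at the loci of the list genes were not added, so values near 0 are not taken as a lack of transcript.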

How the data were processed

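RNA-seq was analysed in 15 libraries, 3 each of PFF, SCNT4c, SCNT4c-KG, SCNT4c-TDG and SCNT8c. According to the study's methods, a SMARTer kit amplified the cDNA, and reads were trimmed with Trimmomatic 0.39, aligned to Sscrofa11.1 with STAR 2.5.3a, assembled with StringTie 2.1.2 and counted with HTSeq. The authors deposited these counts as a normalized signal, each divided by one library factor. All of the values (100%, tolerance 0.01) came out as whole reads after multiplication by this factor, which gave back the reads used by edgeR 4.0.16 and DESeq2 1.42.0. Recovered reads ranged from 12354649 to 22868038.

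The table had 43535 entries, of which 241 repeats were removed. SCNT4c samples are numbered in conflicting ways by the labels and are called libraries a, b and c. A mean of 10 or more was needed for a test, made on log2(value + 1) with limma 3.58.1 in R 4.3.3, with an intensity trend. The 12 embryo libraries were fitted together, and each PFF comparison in a fit of 6. Alternatives were other pseudocounts, filters, scalings, tools and fits, a replicate block, the sum with assembled transcripts and each library left out, which was added for the client list after seeing the data. The fit was also run on simulated data of a simpler design than these, with few changed features, and nothing here rests on it.

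The members, gene lists, marker lists and promoter windows were chosen with earlier results of these data known. From the list of clients, kinases and phosphatases, up to 3 called rises and 3 called falls per comparison whose higher group mean reached 100 were named, largest log2 fold change first; some genes of the list count in its totals but are not reported here by name. *PPP1CB* and *WEE1* beside *WEE2* were remarked on after their values were seen. Exon lengths and positions came from the RefSeq annotation of Sscrofa11.1, and the promoters from its sequence. Replicate numbers were checked for pairing by the correlation of deviations from group means, which ran from -0.0574 to 0.189, so they were not treated as pairs.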

Additional observations from a re-analysis of the deposited data

How the results depend on the processing

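Of 690 alternative values of single members, 630 kept direction and call, 18 newly passed, 17 no longer passed and 25 changed sign, the last all in members that were not called.

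The number of called members in SCNT4c-KG against SCNT4c went from 3 to 1 under quantile normalization, where *YWHAB* (0.98) and *YWHAQ* (0.87) came under the 2-fold limit. In SCNT8c against SCNT4c it was 0 in a fit of the 2 groups alone and 0 to 1 with each library left out. In SCNT4c-TDG against SCNT4c-KG it was 0 under quantile normalization. In SCNT4c-TDG against SCNT8c it went from 1 to 2 under quantile normalization, a common total, DESeq2, no fold limit and the replicate block, to 3 under edgeR, and ranged from 1 to 2 with each library left out. The causes were not tested.

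Values that changed sign were those of *YWHAH* in SCNT4c-KG against SCNT4c (edgeR 0.11, DESeq2 0.14), in SCNT4c-TDG against SCNT4c (common total 0.040), in SCNT8c against SCNT4c (quantile -0.036), in SCNT4c-TDG against SCNT4c-KG (common total 0.16) and in SCNT4c against PFF (edgeR 0.091, DESeq2 0.13). *YWHAB* did so in SCNT4c-TDG against SCNT4c (quantile 0.28, common total 0.24, edgeR 0.22, DESeq2 0.23) and SCNT8c (quantile 0.033). With each library left out, *YWHAH* ranged from -0.28 to 0.38, -0.48 to 0.15 and -0.25 to 0.38 in SCNT4c-KG, SCNT4c-TDG and SCNT8c against SCNT4c, and from -0.24 to 0.37 and -0.45 to 0.020 in SCNT4c-KG and SCNT4c-TDG against SCNT8c. *YWHAE* ranged from -0.058 to 0.37 in SCNT4c-KG against SCNT4c, *YWHAB* from -0.22 to 0.17 in SCNT4c-TDG and -0.026 to 0.44 in SCNT8c against SCNT4c, and *YWHAQ* from -0.011 to 0.15 in SCNT4c-TDG against SCNT4c-KG.

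The share of *YWHAZ* in the family by reads, 12.3% in PFF, 0.0740% in SCNT4c, 2.94% in SCNT4c-KG, 3.46% in SCNT4c-TDG and 0.0527% in SCNT8c, was 5.60%, 0.0308%, 1.13%, 1.56% and 0.0230% per kb. With the assembled transcript added it was 0.475% in SCNT4c and 0.268% in SCNT8c. The replicate block, on numbers that do not pair the libraries, called *YWHAE* lower in SCNT4c-TDG than in SCNT8c (-1.02, adjusted p = 0.0312). Medians of all features moved by up to 0.94 (DESeq2) between scalings. With 3 libraries a group, a two-sided exact permutation test cannot give a p below 0.1.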
